A study of Mus musculus with 6 samples.

Results

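The transcripts described here encode the non-collagen part of the extracellular matrix and the proteins that organise and cut it. They were 41 genes chosen by symbol from their known roles, with earlier results of these data known. All 41 were found among the 22098 gene symbols of the deposited expression table. A symbol with several transcript rows was represented by whichever row had the highest mean across the libraries. The set comprised 5 small leucine-rich proteoglycans, 9 genes for fibronectin and elastic fibres, 5 laminin and nidogen genes, 7 genes for matricellular proteins and versican, 5 CCN genes, 6 matrix protease genes, 3 genes for tissue inhibitors of metalloproteases, and Gja1. Gja1 encodes connexin 43, a gap junction protein of stromal cells and not a matrix protein.

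Poly(A) RNA was sequenced from mouse cells labelled as transformed pro-B acute lymphoblastic leukaemia and kept in culture. Whole C57BL/6 bone marrow had been transduced at the start of culture with a retrovirus carrying the BCR-ABL p185 kinase fusion and a YFP reporter, so all libraries share the oncogene. Wild type marrow was used beside 2 mutant kinds, which affect Ikaros (Ikzf1), a lymphocyte transcription factor with DNA-binding zinc fingers, and are labelled Ikaros_ZnF1-/- or Ikaros_ZnF4-/-. These are called the ZnF1 mutant and the ZnF4 mutant, after the finger that the label names. Cells of all 3 genotypes were taken at day 21 and at day 28, which gave 1 library per genotype and day and n = 2 per genotype. Whether both days of a genotype came from 1 culture, how many animals gave the marrow and whether transformed cells were sorted are not stated in the labels. With day as a term of the fit, a p-value here sets a difference between genotypes, or between days, against a spread. For each gene that spread comes only from how far the change between days differed among the genotypes, which may be technical. It is then drawn toward the spread of the other genes. Libraries are named by genotype and day, as in wild type day 21, and values are listed in the order day 21, day 28.

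Extracellular matrix is laid down mainly by fibroblasts and other mesenchymal cells, and in bone marrow by the stroma that supports blood cell growth. Fibronectin and fibrillins form fibres to which cells bind through integrins, laminins and nidogens form basement membranes, and leucine-rich proteoglycans bind collagen and growth factors. Matricellular proteins such as thrombospondins, SPARC and the CCN family sit in the matrix and signal to cells without bearing load. Metalloproteases cut the matrix, and the TIMP proteins inhibit them. Macrophages also make several of these proteins, among them fibronectin, thrombospondin 1 and TIMP2.

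The values are RPKM, reads scaled to transcript length and to sequencing depth, as deposited. Because they are per length, levels can be compared between genes. Genotypes were compared by the difference in log2(RPKM + 1), given ± its standard error, in a limma fit to every gene and library. A gene was tested when it reached 1 RPKM in at least 2 libraries, and is described as called, risen or fallen at an adjusted p below 0.05. Ikzf1 itself, the mutated gene, stood at 89.2 and 78.7 RPKM in wild type, 108 and 91.4 RPKM in the ZnF1 mutant, and 186 and 165.9 RPKM in the ZnF4 mutant. These values cover the whole transcript and do not check the loss of 1 finger. The 10 pro-B cell markers examined, among them Pax5, Ebf1 and Cd79b, were all detected, with a summed level of 2742.7 to 3072.8 RPKM per library and no separation of the genotypes. Of the 10, 1 fell in the ZnF1 mutant, Cd24a (-0.99 ± 0.11), against 15.2% of all tested genes. In the ZnF4 mutant 1 rose, Igll1 (0.54 ± 0.11), against 10.9% of all tested genes. There 2 fell, Cd24a (-0.73 ± 0.11) and Bst1 (-1.66 ± 0.27), against 7.32%.

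The libraries of the ZnF1 mutant held the most matrix RNA. Summed over the 41 genes, the level was 242.8 and 215.4 RPKM in wild type, 1001.5 and 926.3 RPKM in the ZnF1 mutant, and 134.3 and 148.4 RPKM in the ZnF4 mutant. The genotypes did not overlap in this sum. In bulk RNA, more cells of a type and more RNA per cell cannot be told apart. Of the 41 genes 29 were tested, and 28 of those were called higher in the ZnF1 mutant against 22.9% of the 11379 genes tested (38.1% were called in either direction). However, 8 of the 29 (Dcn, Ogn, Fbn1, Thbs2, Vcan, Wisp2, Htra1 and Htra3) passed the filter only with the ZnF1 libraries and had to differ, so this count is given as a description. Among the 19 genes at 1 RPKM or more in both wild type libraries, a condition that does not use the mutant, 18 were called higher, against 17.3% of all 10245 such genes. Their median difference was 1.88, and that of all such genes -0.05. As the set was chosen with earlier results of these data known, these values too are a description.

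In the ZnF4 mutant many of these genes were below the wild type level. Of the 29 tested genes 10 fell, against 7.32% of all tested genes, and 0 rose, against 10.9%. Of the 19 genes at 1 RPKM or more in both wild type libraries, the same 10 fell, against 7.93% of all such genes. Their median difference was -0.65, and that of all such genes 0.02. Over the 29 tested genes, 11 were lower and 2 higher at an unadjusted p below 0.05 in limma. The comparison shares its wild type libraries with that of the ZnF1 mutant. With 1 library left out, between 2 and 7 genes were called lower. Nov alone of the 10 stayed called whichever library was left out.

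**Figure D1:**
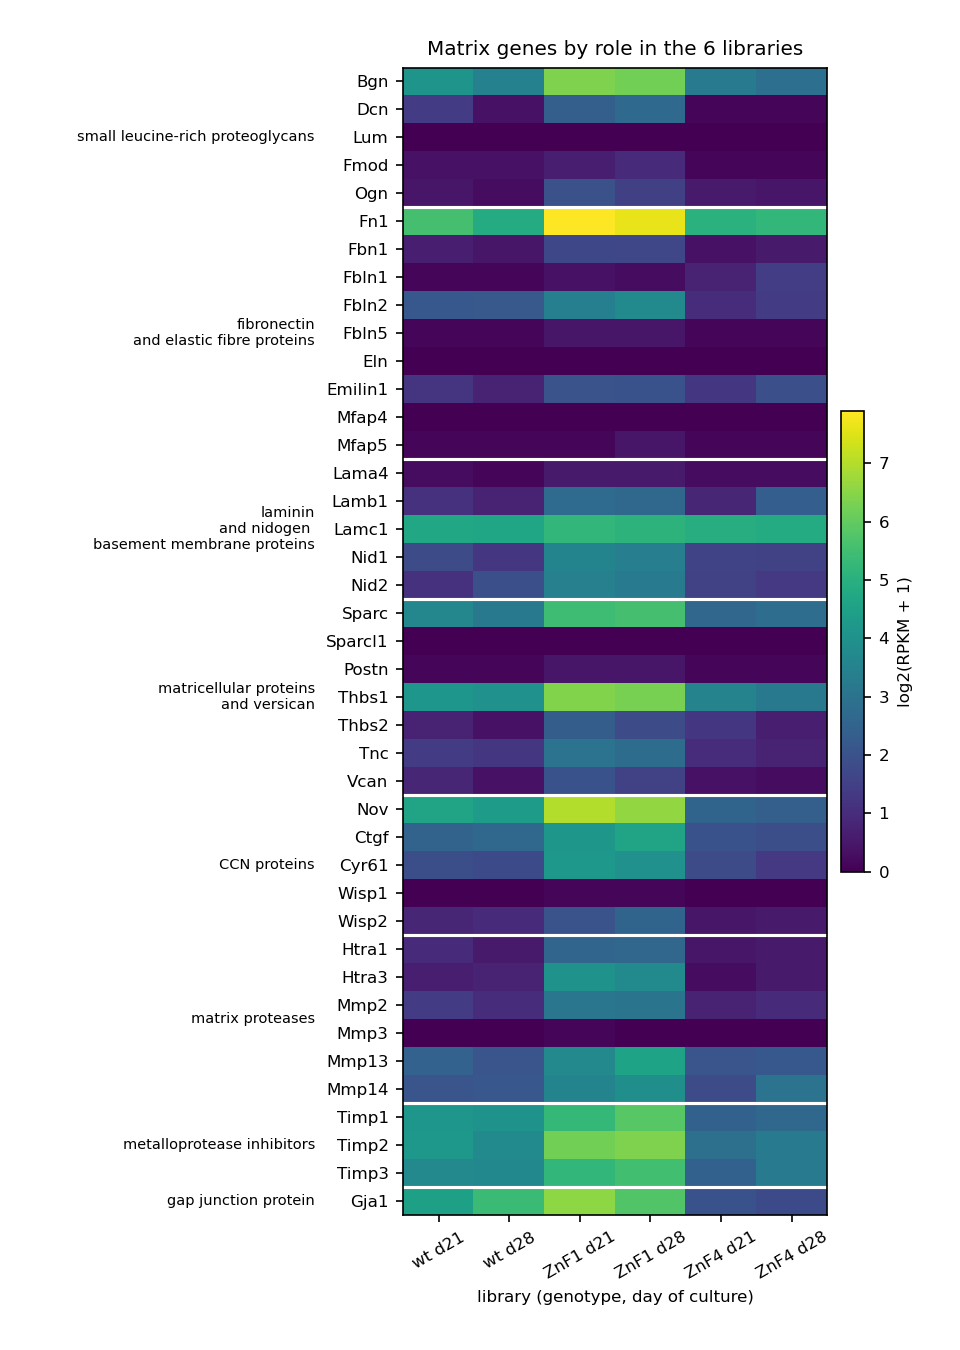
Level of each of the 41 genes (rows, grouped by role) in the 6 libraries (columns, genotype and day of culture), as log2(RPKM + 1). The ZnF1 columns are the brightest in most rows, Fn1 reaches 238.1 RPKM there, and the rows of Lum, Sparcl1, Eln and Mfap4 are at 0 throughout.

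Directly compared, 27 of the 29 tested genes were lower in the ZnF4 mutant than in the ZnF1 mutant, against 23.2% of all tested genes (45.5% in either direction), and 0 were higher. None of the 29 was higher at an unadjusted p below 0.05 either. Among the 18 genes at 1 RPKM or more in both ZnF4 libraries 17 were lower, against 17.9% of all 10351 such genes. The median difference over the 29 was -2.23, and 0.03 over all tested genes. Emilin1 (-0.42 ± 0.26, adjusted p = 0.237) and Lamb1 (-1.10 ± 0.46, adjusted p = 0.105) were not called.

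No matrix gene was called between the days of culture. Comparing day 28 with day 21, limma called 0 of the 29 genes and 0 of all 11379. At an unadjusted p below 0.05, 1 of the 29 was higher and 7 were lower, beside 1185 and 446 of all tested genes.

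**Figure D2:**
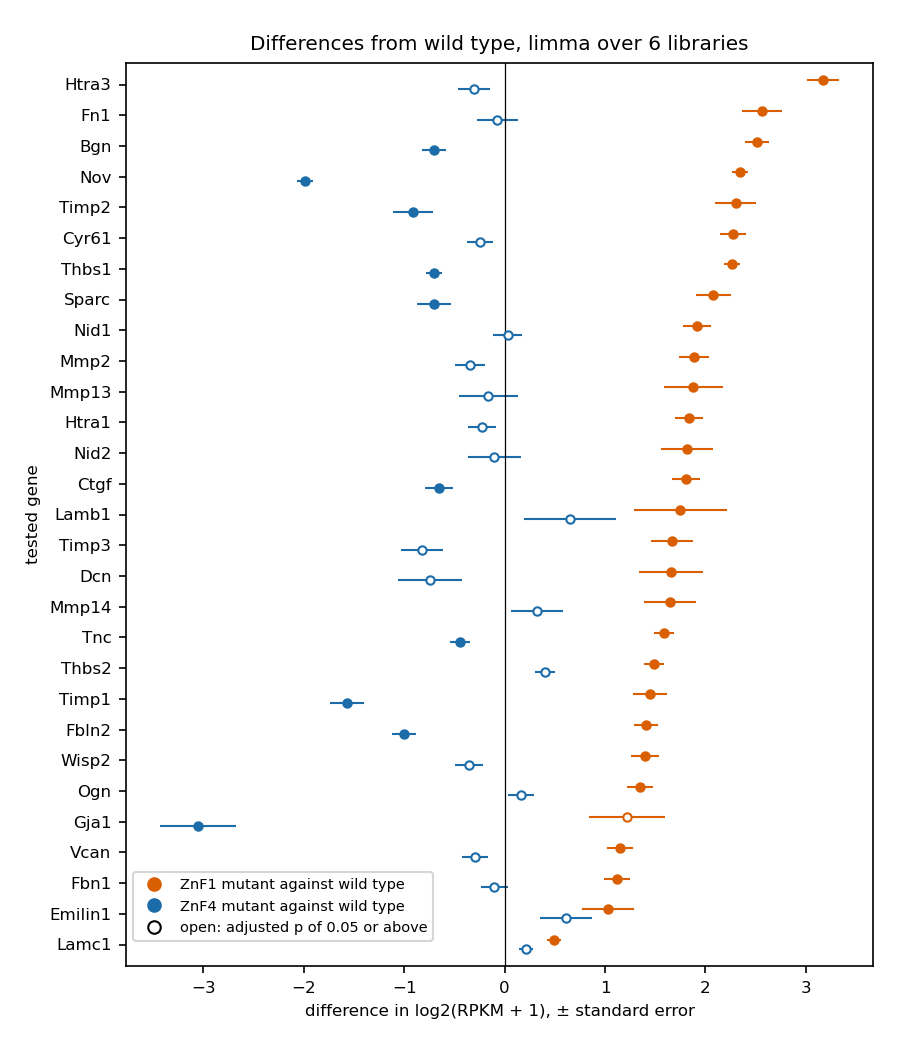
Difference from wild type in log2(RPKM + 1) for the 29 tested genes (points, with standard errors), in the ZnF1 mutant (orange) and the ZnF4 mutant (blue), ordered by the ZnF1 difference. Filled points passed an adjusted p below 0.05. The orange points run from 0.49 to 3.17 and the blue points from -3.05 to 0.65.

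Sequence is shown for 4 promoters, to set genes that changed differently beside each other: Cyr61, Mmp13 and Nid1 rose in the ZnF1 mutant and were not called in the ZnF4 mutant, while Gja1 fell in the ZnF4 mutant. Each is the 250 bases before the start site, from RefSeq on build GRCm38.p6, written 5′ to 3′ along the gene. The expression values were made on mm9, and no coordinate of theirs is used. Capitals mark the letters of 3 motifs on either strand: GGAATG, bound by TEAD factors; TGAGTCA, bound by AP-1; and TGGGAA, which holds the core letters that Ikaros binds. Motif letters can share bases, but 0 pairs did so in these windows. Nid1 lies at chr13:13437352-13437601 on the plus strand, Mmp13 at chr9:7272264-7272513 on the plus strand, Cyr61 (now Ccn1) at chr3:145649986-145650235 on the minus strand and Gja1 at chr10:56377050-56377299 on the plus strand.
Nid1: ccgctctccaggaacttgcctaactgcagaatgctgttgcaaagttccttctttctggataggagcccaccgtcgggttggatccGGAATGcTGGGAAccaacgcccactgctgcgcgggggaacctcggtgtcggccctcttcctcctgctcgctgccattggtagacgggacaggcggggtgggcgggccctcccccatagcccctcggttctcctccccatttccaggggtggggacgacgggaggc
Mmp13: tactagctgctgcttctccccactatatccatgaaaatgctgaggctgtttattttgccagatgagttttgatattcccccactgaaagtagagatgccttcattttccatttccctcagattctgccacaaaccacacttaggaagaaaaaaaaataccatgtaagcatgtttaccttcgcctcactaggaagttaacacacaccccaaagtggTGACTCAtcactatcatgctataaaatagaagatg
Cyr61: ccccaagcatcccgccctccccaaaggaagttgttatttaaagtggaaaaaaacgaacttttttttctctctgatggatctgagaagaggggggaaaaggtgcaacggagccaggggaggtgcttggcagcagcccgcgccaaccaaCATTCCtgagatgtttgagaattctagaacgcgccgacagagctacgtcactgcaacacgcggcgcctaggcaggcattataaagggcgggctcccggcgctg
Gja1: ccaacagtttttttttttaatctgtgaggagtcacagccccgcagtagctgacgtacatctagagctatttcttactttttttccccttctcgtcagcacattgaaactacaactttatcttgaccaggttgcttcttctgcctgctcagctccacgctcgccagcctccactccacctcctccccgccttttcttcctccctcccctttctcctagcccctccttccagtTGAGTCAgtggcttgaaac

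Nid1 held the TEAD letters from 165 bases and the Ikaros letters from 158 bases before the start. In Mmp13 the AP-1 letters began 35 bases before the start, in Gja1 19 bases before it, and in Cyr61 the TEAD letters began 103 bases before it. Promoter windows of 300 bases (250 before and 50 after the start) were at hand for 25 of the 41 genes. The TEAD letters occurred in 4 of the 25 (16%) and in 14.6% of 27025 windows, 1 per gene. The Ikaros letters occurred in 9 of the 25 (36%) and in 25.5% of all windows. The AP-1 letters occurred in 3 of the 25 (12%), namely Mmp3, Mmp13 and Gja1, and in 5.17% of all windows. The 4 promoters printed each held a match, while other windows, such as those of Bgn, Sparc and Timp2, held none of the 3 motifs. These matches describe letters and are no measure of binding.

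Among the small leucine-rich proteoglycans, Bgn (biglycan) was the most abundant. It had 16 and 10.1 RPKM in wild type, 81.4 and 72.8 RPKM in the ZnF1 mutant, and 8.6 and 6.4 RPKM in the ZnF4 mutant. No libraries of different genotypes overlapped. It rose by 2.51 ± 0.12 in the ZnF1 mutant (adjusted p = 0.001) and fell by 0.70 ± 0.12 in the ZnF4 mutant (adjusted p = 0.0175). The second call was lost when any single wild type or ZnF4 library was omitted (highest adjusted p 0.147) and without day in the model (adjusted p = 0.1). Dcn (decorin, which binds collagen fibrils) had 1.6 and 0.3 RPKM in wild type, 4.2 and 5.5 RPKM in the ZnF1 mutant and 0.1 RPKM in both ZnF4 libraries. Its rise in the ZnF1 mutant was 1.66 ± 0.32 (adjusted p = 0.0137), lost without ZnF1 day 28 (1.25, adjusted p = 0.0774) or with no filter (adjusted p = 0.069), and 1.08 when wild type day 28 was omitted. Ogn (osteoglycin, or mimecan) had 0.4 and 0.2 RPKM in wild type, 2.9 and 1.8 RPKM in the ZnF1 mutant, and 0.5 and 0.4 RPKM in the ZnF4 mutant. It rose by 1.35 ± 0.13 in the ZnF1 mutant and differed by 0.16 ± 0.13 in the ZnF4 mutant (adjusted p = 0.452). Fmod (fibromodulin) stayed at 0.9 RPKM or below and was not tested, and Lum (lumican) was listed at 0 in every library.

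Fn1, which encodes fibronectin, was the most abundant of the 41 genes in both ZnF1 libraries. It had 46.1 and 28.1 RPKM in wild type, 238.1 and 197.3 RPKM in the ZnF1 mutant, and 32.1 and 36.7 RPKM in the ZnF4 mutant. The ZnF1 libraries lay far above the rest, while wild type and the ZnF4 mutant overlapped. It rose by 2.56 ± 0.20 in the ZnF1 mutant (adjusted p = 0.00129) and differed by -0.07 ± 0.20 in the ZnF4 mutant (adjusted p = 0.852). Fbln2 (fibulin 2, which bridges fibronectin and elastic fibres) had 3.5 and 3.6 RPKM in wild type, 9.7 and 12.6 RPKM in the ZnF1 mutant, and 1 and 1.6 RPKM in the ZnF4 mutant. Its 3 genotypes were separate, with a rise of 1.41 ± 0.12 in the ZnF1 mutant (adjusted p = 0.00145) and a fall of 1.0 in the ZnF4 mutant (-1.0 ± 0.12, adjusted p = 0.00635). The fall was not called without wild type day 21 or either ZnF4 library (highest adjusted p 0.0749). Fbn1 (fibrillin 1, the scaffold of elastic microfibrils) had 0.6 and 0.4 RPKM in wild type, 2.3 and 2.2 RPKM in the ZnF1 mutant, and 0.3 and 0.5 RPKM in the ZnF4 mutant. It rose by 1.12 ± 0.13 in the ZnF1 mutant (0.67 with quantile scaling).

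Emilin1, an elastic fibre glycoprotein, was the tested gene whose profile was least like the others. Its values were 1.3 and 0.7 RPKM in wild type, 3.1 and 3 RPKM in the ZnF1 mutant, and 1.4 and 2.8 RPKM in the ZnF4 mutant. Over the 6 libraries its log2 level correlated at 0.616 with the mean of the other tested genes, against 0.725 to 0.997 for the other 28. The rise in the ZnF1 mutant (1.03 ± 0.26, adjusted p = 0.0314) was lost when any single wild type or ZnF1 library was omitted (highest adjusted p 0.201, and 0.66 on omitting wild type day 28), with no filter (adjusted p = 0.11) and with quantile scaling (0.62, adjusted p = 0.0837). Fbln1 (fibulin 1) had another order of genotypes, with 0.1 RPKM in both wild type libraries, 0.3 and 0.2 RPKM in the ZnF1 mutant, and 0.7 and 1.7 RPKM in the ZnF4 mutant. It was not tested, since 1 library passed 1 RPKM, and its value of 1.7 RPKM was the highest of any untested gene. Elastin itself (Eln) and Mfap4 were listed at 0 in every library, and Fbln5 and Mfap5 stayed at 0.4 RPKM or below.

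All 4 tested laminin and nidogen genes rose in the ZnF1 mutant, against 22.9% of all tested genes. None was called in the ZnF4 mutant, where 18.2% of all tested genes were called in either direction. Their differences there were -0.10 to 0.65, with adjusted p of 0.0924 or above. Lamc1 (the laminin γ1 chain, shared by most laminins) had 25.4 and 23.8 RPKM in wild type, 36.8 and 33.3 RPKM in the ZnF1 mutant, and 29.2 and 28 RPKM in the ZnF4 mutant. It had the smallest rise of the 28 called genes (0.49 ± 0.07, adjusted p = 0.00457), a call lost without either wild type library or ZnF1 day 21 (highest adjusted p 0.0706). Nid1 (nidogen 1, which links laminin to type IV collagen) had 2.6 and 1.4 RPKM in wild type, 10.9 and 9.4 RPKM in the ZnF1 mutant, and 2.1 and 1.9 RPKM in the ZnF4 mutant. The ZnF1 libraries were 4.19 and 6.71 times wild type at day 21 and day 28, and the ZnF4 libraries lay between the wild type libraries. Nid2 had 1.2 and 2.8 RPKM in wild type, 9.9 and 8.6 RPKM in the ZnF1 mutant, and 1.9 and 1.5 RPKM in the ZnF4 mutant. The rises in the ZnF1 mutant were 1.92 ± 0.14 for Nid1 and 1.82 ± 0.26 for Nid2, the second lost without ZnF1 day 21 (adjusted p = 0.0503). Lamb1 (the laminin β1 chain) had 1.2 and 0.7 RPKM in wild type, 5.8 and 5.2 RPKM in the ZnF1 mutant, and 0.8 and 4.1 RPKM in the ZnF4 mutant. Of the ZnF4 libraries, that of day 21 was within the wild type range and that of day 28 near the ZnF1 level, and the rise in the ZnF1 mutant (1.75 ± 0.46, adjusted p = 0.0346) was lost when any single wild type or ZnF1 library was omitted (highest adjusted p 0.244) and without the filter (adjusted p = 0.125). Without ZnF4 day 21, Lamb1 was called higher in the ZnF4 mutant (1.53, adjusted p = 0.04). Lama4 stayed at 0.5 RPKM or below.

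The 3 genes of matricellular proteins at 1 RPKM or more in both wild type libraries, Sparc, Thbs1 and Tnc, rose in the ZnF1 mutant and fell in the ZnF4 mutant (17.3% and 7.93% of all such genes did). Thbs1 (thrombospondin 1, an activator of latent TGF-beta) had 16.9 and 14.8 RPKM in wild type, 83 and 76.2 RPKM in the ZnF1 mutant, and 10.7 and 8.2 RPKM in the ZnF4 mutant, with no overlap of genotypes. It rose by 2.26 ± 0.08 in the ZnF1 mutant and fell by 0.70 ± 0.08 in the ZnF4 mutant (adjusted p = 0.001 and 0.00601), the fall being lost without either wild type library (highest adjusted p 0.0922). Sparc (osteonectin, a collagen-binding glycoprotein) had 11.5 and 8.2 RPKM in wild type, 42.4 and 46.4 RPKM in the ZnF1 mutant, and 5.1 and 6.1 RPKM in the ZnF4 mutant. Its genotypes were also separate. Its rise was 2.08 ± 0.17 (adjusted p = 0.00134), and its fall in the ZnF4 mutant (-0.70 ± 0.17, adjusted p = 0.0478) was lost without any 1 library except wild type day 28 (highest adjusted p 0.238), being -0.40 without wild type day 21, and also without the filter, without the variance trend and with the longest transcript row. Tnc (tenascin C, a matrix protein of wounds and stem cell niches) had 1.6 and 1.4 RPKM in wild type, 7.1 and 6 RPKM in the ZnF1 mutant, and 1 and 0.7 RPKM in the ZnF4 mutant. It rose by 1.59 ± 0.10 in the ZnF1 mutant, and its fall in the ZnF4 mutant (-0.44 ± 0.10, adjusted p = 0.0357) was lost whichever library was omitted (highest adjusted p 0.219), without day in the model and without the filter.

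Unlike Thbs1, Thbs2 (thrombospondin 2) was not called in the ZnF4 mutant. It had 0.7 and 0.3 RPKM in wild type, 4 and 2.5 RPKM in the ZnF1 mutant, and 1.4 and 0.6 RPKM in the ZnF4 mutant, where it was 2 times wild type on each day. Its difference in the ZnF4 mutant was 0.40 ± 0.10 (adjusted p = 0.0572), called with a pseudocount of 0.1 (adjusted p = 0.0436) and without the variance trend (adjusted p = 0.0378). In the ZnF1 mutant Thbs2 rose by 1.49 ± 0.10. Thbs2 and Vcan passed the filter only with the ZnF1 libraries. Vcan (versican, a large hyaluronan-binding proteoglycan) had 0.8 and 0.3 RPKM in wild type, 3 and 1.9 RPKM in the ZnF1 mutant, and 0.3 and 0.2 RPKM in the ZnF4 mutant. Its rise in the ZnF1 mutant was 1.15 ± 0.13 (0.73 with quantile scaling). Postn (periostin), a fibroblast matricellular protein, stayed at 0.4 RPKM or below, and Sparcl1 was listed at 0 throughout.

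The CCN genes encode secreted proteins that bind integrins and growth factors. Nov (Ccn3) was the most abundant of them and moved in opposite directions in the mutants. It had 23.3 and 19.2 RPKM in wild type, 126 and 97.4 RPKM in the ZnF1 mutant, and 4.9 and 4.3 RPKM in the ZnF4 mutant. The genotypes did not overlap: the ZnF1 libraries were 5.41 and 5.07 times wild type, and the ZnF4 libraries 0.21 and 0.224 times. It rose by 2.34 ± 0.08 in the ZnF1 mutant (adjusted p = 0.001) and fell by 1.99 in the ZnF4 mutant (-1.99 ± 0.08, adjusted p = 0.000537). Between the mutants the difference was -4.32 ± 0.08 (adjusted p = 0.000255), the 2nd lowest of the 11379 tested genes. Ctgf (Ccn2), a target of TGF-beta in connective tissue, had 4.7 and 5.4 RPKM in wild type, 17.2 and 23.6 RPKM in the ZnF1 mutant, and 3 and 2.7 RPKM in the ZnF4 mutant. It rose by 1.81 ± 0.14 in the ZnF1 mutant (adjusted p = 0.00129), and its fall in the ZnF4 mutant (-0.65 ± 0.14, adjusted p = 0.0373) was lost when any single wild type or ZnF4 library was omitted (highest adjusted p 0.244) and without the filter.

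Cyr61 (Ccn1), like Ctgf a known target of the YAP and TEAD factors, whose promoter is printed above, had 2.7 and 2.4 RPKM in wild type, 17.4 and 14.8 RPKM in the ZnF1 mutant, and 2.6 and 1.5 RPKM in the ZnF4 mutant. It rose by 2.27 ± 0.13 in the ZnF1 mutant (adjusted p = 0.001) and was not called in the ZnF4 mutant (-0.24 ± 0.13, adjusted p = 0.261). Wisp2 (Ccn5) had 0.8 and 0.9 RPKM in wild type, 3.1 and 4.8 RPKM in the ZnF1 mutant, and 0.4 and 0.5 RPKM in the ZnF4 mutant. In the ZnF1 mutant it rose by 1.40 ± 0.14. Wisp1 (Ccn4) did not pass 0.1 RPKM.

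The serine protease gene Htra3 had the largest rise of the 29 tested genes. It had 0.6 and 0.7 RPKM in wild type, 15.4 and 12.4 RPKM in the ZnF1 mutant, and 0.2 and 0.5 RPKM in the ZnF4 mutant. The ZnF1 libraries were 25.7 and 17.7 times wild type, and the difference of 3.17 ± 0.16 (adjusted p = 0.001) was the 5th highest of the 11379 tested genes, although Htra3 and Htra1 entered the test only through the ZnF1 libraries, where they are high. Htra3 has 2 transcript rows, and with the longer one in its place the difference was 1.77. Its relative Htra1 had 0.9 and 0.5 RPKM in wild type, 5 and 5.1 RPKM in the ZnF1 mutant, and 0.4 and 0.5 RPKM in the ZnF4 mutant, and rose by 1.84 ± 0.14 in the ZnF1 mutant. Both cut matrix proteins and inhibit TGF-beta family signals.

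Metalloprotease genes also rose. Mmp13 (collagenase 3) had 4.6 and 3.2 RPKM in wild type, 12.3 and 23.1 RPKM in the ZnF1 mutant, and 3.2 and 3.5 RPKM in the ZnF4 mutant. Mmp14 (MT1-MMP, a membrane-bound activator of pro-MMP2) had 3.2 and 3.4 RPKM in wild type, 10.9 and 14.2 RPKM in the ZnF1 mutant, and 2.6 and 7 RPKM in the ZnF4 mutant. Mmp2 (gelatinase A) had 1.6 and 1 RPKM in wild type, 7.6 and 7.3 RPKM in the ZnF1 mutant, and 0.7 and 0.9 RPKM in the ZnF4 mutant. In all of these the ZnF1 libraries were above every other library. Of all symbols with a value above 0, 36.2% had them above both wild type libraries and 34.1% above both ZnF4 libraries. The rises were 1.88 ± 0.29 for Mmp13 (adjusted p = 0.00723), 1.65 ± 0.26 for Mmp14 (adjusted p = 0.00761) and 1.89 ± 0.15 for Mmp2 (adjusted p = 0.00129). That of Mmp13 was lost without wild type day 28 (adjusted p = 0.061), and that of Mmp14 without the same library, without ZnF1 day 21 (highest adjusted p 0.0799) or without the filter. None of the 5 tested protease genes was called in the ZnF4 mutant, where 18.2% of all tested genes were called in either direction. Their differences ran from -0.34 to 0.32, with the smallest adjusted p, for Mmp2, at 0.191. Mmp3 (stromelysin 1) had 0.1 RPKM in 1 library and 0 in the rest.

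The inhibitors rose beside the proteases in the ZnF1 mutant and were below wild type in the ZnF4 mutant. Timp2, which also assists MT1-MMP in activating pro-MMP2, had 17.7 and 12.4 RPKM in wild type, 73.2 and 81.2 RPKM in the ZnF1 mutant, and 6.5 and 8.5 RPKM in the ZnF4 mutant. Timp1 had 16.9 and 15.7 RPKM in wild type, 37.2 and 57.1 RPKM in the ZnF1 mutant, and 4.5 and 5.2 RPKM in the ZnF4 mutant. Timp3, the inhibitor that stays bound to matrix, had 12.1 and 11.8 RPKM in wild type, 36.8 and 44.1 RPKM in the ZnF1 mutant, and 4.5 and 8.8 RPKM in the ZnF4 mutant. For all 3 the genotypes did not overlap. Of all symbols with a value above 0, 36.2% had both ZnF1 libraries above both wild type libraries. Both ZnF4 libraries lay below both wild type libraries for 21.0%. The share with all 3 genotypes apart was not computed. In the ZnF1 mutant they rose by 2.30 ± 0.20 (Timp2), 1.45 ± 0.17 (Timp1) and 1.67 ± 0.21 (Timp3), with adjusted p from 0.00148 to 0.00343. In the ZnF4 mutant Timp1 fell by 1.57 (-1.57 ± 0.17, adjusted p = 0.00477) and Timp2 by 0.91 (-0.91 ± 0.20, adjusted p = 0.0363), while Timp3 missed the threshold (-0.82 ± 0.21, adjusted p = 0.0515). The fall of Timp1 was lost without wild type day 21, either ZnF4 library or the filter (highest adjusted p 0.0786). That of Timp2 was lost without any 1 library except wild type day 28 (highest adjusted p 0.195, and -0.54 without wild type day 21) and without the filter. Timp3 passed with quantile or upper quartile scaling (adjusted p = 0.0425 in each), with a mean of at least 4 RPKM (0.0459), with summed transcript rows (0.0496) and without ZnF4 day 28 (0.0489).

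Gja1, the gap junction gene, had 21.4 and 40.9 RPKM in wild type, 92.3 and 53.6 RPKM in the ZnF1 mutant, and 3 and 2.4 RPKM in the ZnF4 mutant. The ZnF4 libraries were far below the rest, at 0.14 and 0.0587 times wild type on the same day. Its fall there (-3.05 ± 0.38, adjusted p = 0.00693) was the 17th lowest difference of all tested genes, and was not called without either ZnF4 library or the filter (highest adjusted p 0.102). Between the mutants it differed by -4.27 ± 0.38 (adjusted p = 0.001), called under all 15 alternatives. In the ZnF1 mutant it was the 1 tested gene of the set that was not called (1.22 ± 0.38, adjusted p = 0.0562). It passed there with quantile scaling, without day in the model, and without wild type day 28 or ZnF1 day 28 (adjusted p from 0.023 to 0.0494). The only other tested gap junction gene, Panx1, had 23.2 to 31.3 RPKM in all libraries and fell by 0.25 ± 0.07 in the ZnF1 mutant and by 0.32 ± 0.07 in the ZnF4 mutant.

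**Figure D3:**
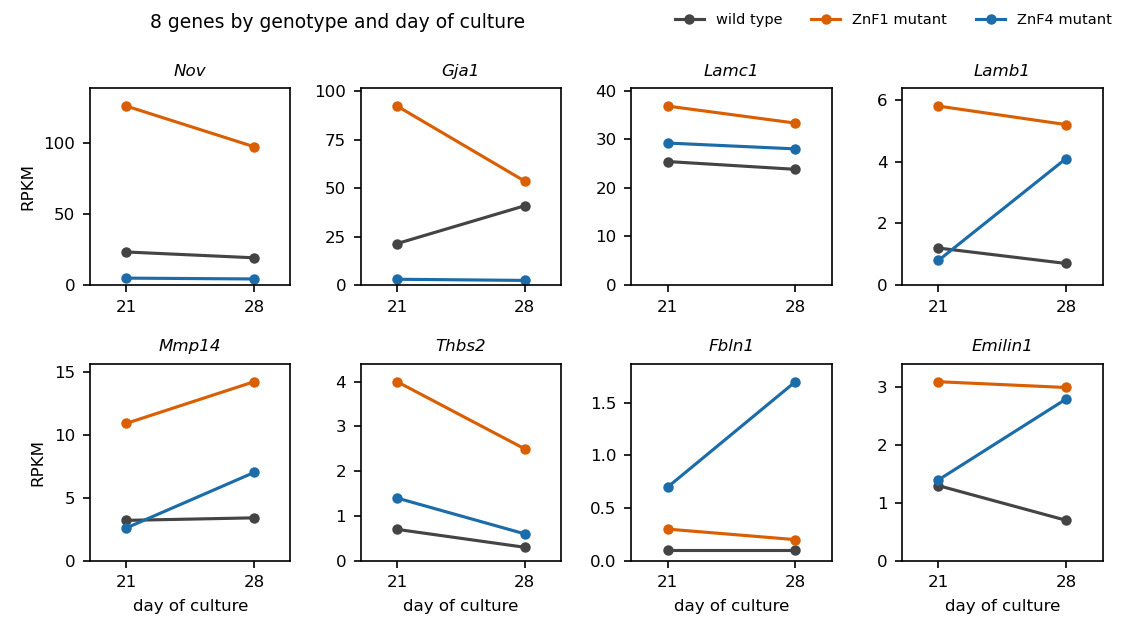
RPKM (vertical axis, from 0) at day 21 and day 28 of culture in wild type (grey), ZnF1 mutant (orange) and ZnF4 mutant (blue), 1 library per point, for 8 genes chosen after their values were seen. Nov and Gja1 are lowest in the ZnF4 mutant, at 4.9 RPKM or below, Lamc1 lies within 23.8 to 36.8 RPKM, and Lamb1, Mmp14 and Emilin1 have a ZnF4 library of day 28 well above that of day 21.

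As ratios of RPKM, the gains in the ZnF1 mutant were around 4 to 5 times for the median gene. For the 19 genes at 1 RPKM or more in both wild type libraries, the ZnF1 to wild type ratio ran from 1.45 to 8.25 at day 21 (median 4.19) and from 1.31 to 7.3 at day 28 (median 5.07). All 19 were above 1 on both days, and over all 10245 such genes the medians were 0.942 and 0.977. The ZnF4 to wild type ratio ran from 0.14 to 1.58 at day 21 (median 0.625) and from 0.0587 to 2.06 at day 28 (median 0.634). It was above 1 for 2 of the 19 genes at day 21 and for 5 at day 28, and the medians over all such genes were 1.01 on both days. Across all 41 genes, 37 had a value above 0 in some library, and in 35 of them both ZnF1 libraries lay above both wild type libraries, against 36.2% of all symbols above 0. The exceptions were Mfap5 and Mmp3. Both ZnF4 libraries lay below both wild type libraries for 16 genes (21.0% of all symbols above 0) and above both for 3, namely Fbln1, Emilin1 and Lamc1 (26.4%). Both ZnF4 libraries lay below both ZnF1 libraries for 34 genes (34.1% of all symbols above 0).

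**Figure D4:**
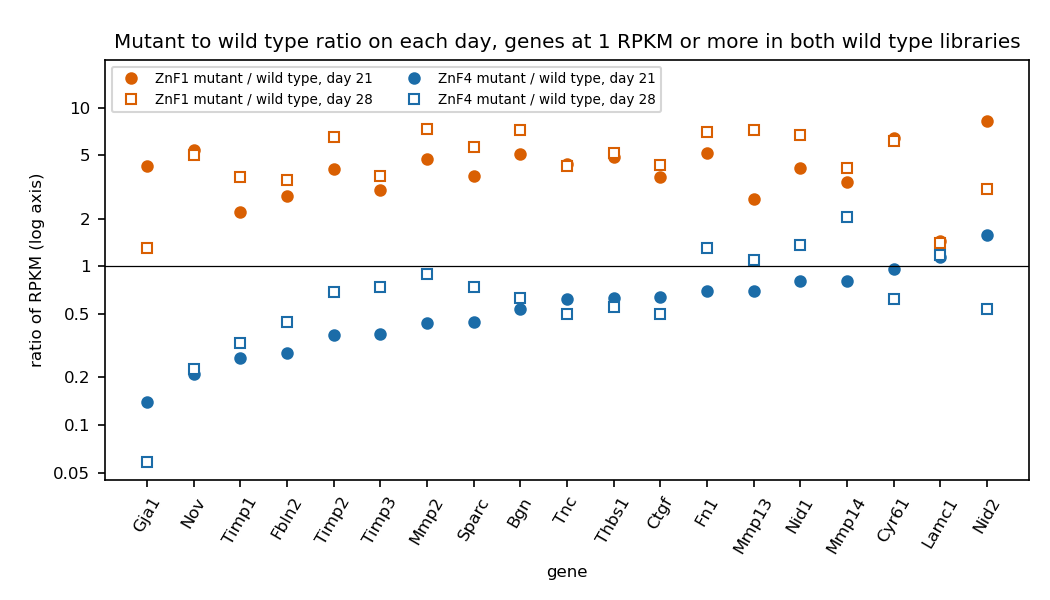
Ratio of mutant to wild type RPKM on the same day (vertical axis, log scale) for the 19 genes at 1 RPKM or more in both wild type libraries, ordered by the ZnF4 ratio of day 21. Circles are day 21 and open squares day 28. ZnF1 ratios (orange) are all above 1, ZnF4 ratios (blue) reach down to 0.0587 at Gja1, and those of Lamc1 lie between 1.15 and 1.45.

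Other matrix genes, listed by role, are counted here over those at 1 RPKM or more in both wild type libraries, of which 17.3% over all genes rose in the ZnF1 mutant and 7.93% fell in the ZnF4 mutant. The remaining tested genes of each list include those that passed the filter only with the ZnF1 libraries, where they had to be high. Of 7 elastic fibre genes outside the set, 7 rose in the ZnF1 mutant (median 1.28, against -0.05 over all such genes) and 1 fell in the ZnF4 mutant. Ltbp2, a microfibril protein, rose by 2.02 ± 0.13, Emilin2 by 1.89 ± 0.11 and Efemp2, a fibulin relative, by 1.68 ± 0.11. Efemp1, at 2 and 0.9 RPKM in wild type, rose by 2.43 ± 0.11. Only 2 genes of the basement membrane list met the wild type condition. Sdc2, a syndecan of the cell surface and not a basement membrane protein, rose in the ZnF1 mutant (1.82 ± 0.11). Lamb3, a laminin chain, was not called there (-0.15 ± 0.12). Both fell in the ZnF4 mutant. Hspg2, which encodes perlecan, had 0.4 to 0.8 RPKM outside the ZnF1 mutant and passed the filter only with its libraries, as did Col4a1, Col4a2 and Col18a1. Lamb2, Agrn and, of the elastic fibre list, Ltbp4 passed the filter only through the mutants, where they had to be high. In the ZnF1 mutant they rose by 0.98 ± 0.09, 0.63 ± 0.11 and 0.67 ± 0.11. In the ZnF4 mutant they rose by 1.92 ± 0.09, 0.47 ± 0.11 and 1.54 ± 0.11. Lamb2 and Ltbp4 were also higher in the ZnF4 than in the ZnF1 mutant (0.94 ± 0.09 and 0.88 ± 0.11).

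Of 12 proteases and inhibitors 10 rose in the ZnF1 mutant (median 1.42), among them Plau, the urokinase gene (2.24 ± 0.17), Mmp19 (1.98 ± 0.10) and Bmp1, which trims procollagen (1.88 ± 0.11). In the ZnF4 mutant 2 of the 12 rose and 2 fell (median 0.02). Of 5 matricellular and large proteoglycan genes 3 rose and 1 fell in the ZnF1 mutant (median 1.5), and 3 fell in the ZnF4 mutant (median -0.68). Spp1, which encodes osteopontin and is made by macrophages and osteoblasts, rose by 2.20 ± 0.10 in the ZnF1 mutant and fell by 1.27 in the ZnF4 mutant (-1.27 ± 0.10), with 83.3 to 1012.5 RPKM over the 6 libraries. Srgn, the proteoglycan of blood cell granules, fell in both (-0.36 ± 0.08 and -1.06 ± 0.08).

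Leucine-rich proteoglycans outside the set had 2 tested genes. Tsku was higher in both mutants, by 1.03 ± 0.12 in the ZnF1 mutant and by 1.74 ± 0.12 in the ZnF4 mutant. It had 0.6 and 0.4 RPKM in wild type and passed the filter only through the mutants, where it had to be high. Its values were 1.9 and 2.2 RPKM in the ZnF1 mutant and 3.8 and 4.2 RPKM in the ZnF4 mutant. Chad was called in neither mutant. Of 13 matrix receptor genes at 1 RPKM or more in both wild type libraries 10 rose and 1 fell in the ZnF1 mutant (median 0.85), and in the ZnF4 mutant 3 rose and 4 fell (median -0.08). The integrin chain Itgb1, a subunit of the main fibronectin and laminin receptors, rose in both mutants, by 0.88 ± 0.07 and 0.84 ± 0.07. Itgb5, a vitronectin receptor chain, rose in the ZnF1 mutant by 2.01 ± 0.18 and fell in the ZnF4 mutant (-0.73 ± 0.18). Of 13 such genes of the TGF-beta and YAP/TEAD pathways 3 rose in the ZnF1 mutant (median 0.10), and 1 rose and 1 fell in the ZnF4 mutant (median -0.06). Outside these 13, the coactivator genes Yap1 (at most 0.6 RPKM elsewhere, 2.2 and 1.9 RPKM in the ZnF1 mutant) and Wwtr1, or TAZ (at most 0.3 and 1.3 RPKM), passed the filter only with the ZnF1 libraries. Tgfbr3, the betaglycan receptor, had 0.8 and 0.4 RPKM in wild type and passed the filter only through the mutants, where it had to be high. It was higher in both, by 1.67 ± 0.11 and 2.63 ± 0.11.

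Markers of stromal cells and of macrophages were higher in the ZnF1 mutant, as the matrix genes were. In the ZnF4 mutant the stromal markers were mixed. Of 8 fibroblast and stromal markers at 1 RPKM or more in both wild type libraries, 8 rose in the ZnF1 mutant (median 1.82). Fstl1, Pcolce and Serpinf1 were among them (1.27 to 1.96). In the ZnF4 mutant 2 of the 8 rose and 3 fell (median -0.39). The summed level of all 22 markers was 59.1 to 69.4 RPKM in wild type, 251.9 to 280.2 RPKM in the ZnF1 mutant and 109.6 to 114.5 RPKM in the ZnF4 mutant, so in the ZnF4 mutant it was above wild type while the matrix sum was below. Serpinf1 (39.7 and 46.3 RPKM) and S100a4 (45.8 and 50.2 RPKM) made up most of the ZnF4 sum and were the 2 that rose there. Of the 18 tested markers, 13 had a difference below 0 in the ZnF4 mutant and 5 above. Of the other markers, Col1a1 (0.8 to 8.3 RPKM), Pdgfra (0.2 to 4.1 RPKM) and Prrx1 (0.3 to 3.1 RPKM) were highest in the ZnF1 mutant, the last 2 having passed the filter only there. Thy1 had the other order, with 3 and 0.3 RPKM in wild type, 0.2 and 0.7 RPKM in the ZnF1 mutant, and 9.4 and 3.8 RPKM in the ZnF4 mutant, and was higher in the ZnF4 than in the ZnF1 mutant (2.31 ± 0.49, adjusted p = 0.0157). Lepr and Twist2 did not pass 0.1 RPKM, and Tcf21 was at 0.

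Of 20 macrophage markers 19 were in the table, and 14 had 1 RPKM or more in both wild type libraries. In the ZnF1 mutant all 14 rose (median 2.33), and in the ZnF4 mutant 8 fell (median -0.82). The macrophage sum was 443.5 to 677.4 RPKM in wild type, 2540.7 to 2711.9 RPKM in the ZnF1 mutant and 300.1 to 360.3 RPKM in the ZnF4 mutant. C1qb had 38.3 to 54.4, 246.9 to 249.8 and 19.3 to 20.8 RPKM in the same order.

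Smooth muscle and pericyte markers had sums of 16 to 17.1, 47.5 to 53.8 and 11.5 to 12.7 RPKM in wild type, ZnF1 and ZnF4 mutant. Of 4 such markers at 1 RPKM or more in both wild type libraries 3 rose in the ZnF1 mutant, namely Acta2 (1.54 ± 0.17), Tagln (1.33 ± 0.09) and Tpm2 (1.81 ± 0.18), and 1 fell in the ZnF4 mutant. Acta2, or smooth muscle actin, reached 21.6 and 26.2 RPKM in the ZnF1 mutant and Tagln 15.6 RPKM in both libraries, while Myh11 and Des stayed at 0.1 RPKM or below and Rgs5 at 0.6 RPKM or below. Adipocyte markers summed to 20.2 to 39.5, 223.2 to 224.3 and 17.2 to 22.2 RPKM. Lpl, a lipase that macrophages share, made up most of that sum and rose by 2.93 ± 0.20 in the ZnF1 mutant. The other 3 tested adipocyte markers passed the filter only with the ZnF1 libraries, and Adipoq did not pass 0.1 RPKM. Endothelial markers summed to 29.4 to 29.5, 33.8 to 35.6 and 22.8 to 25.5 RPKM. Neither of the 2 at 1 RPKM or more in both wild type libraries, Pecam1 and Egfl7, was called in the ZnF1 mutant, Kdr (0.2 RPKM in wild type, 2.5 and 1.2 RPKM in the ZnF1 mutant) passed the filter only there, and Cldn5 was at 0. Osteoblast markers had 2 tested genes, Spp1 and Alpl, and Alpl had 188.6 to 209.1 RPKM in all libraries (0.05 ± 0.09 in the ZnF1 mutant). The part of any of these cell types in the matrix result was not tested.

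**Figure D5:**
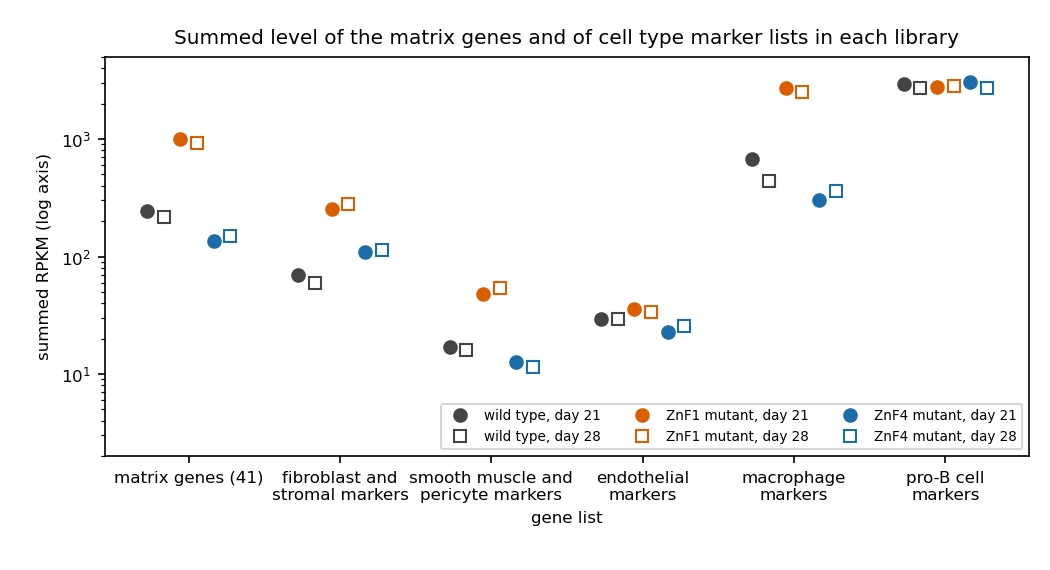
Summed RPKM (vertical axis, log scale) of the 41 matrix genes and of 5 cell type marker lists in each of the 6 libraries, coloured by genotype, with circles for day 21 and open squares for day 28. The matrix genes and the smooth muscle, endothelial and macrophage lists are in the order ZnF1 mutant, wild type, ZnF4 mutant, the fibroblast list has the ZnF4 mutant above wild type, and the pro-B list is level.

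Genes outside the set with the most similar profile were looked for next. Among 11350 tested genes outside the set, the 10 that correlated best over the 6 libraries with the mean log2 level of the 29 tested genes had Pearson coefficients of 0.9988 to 0.9996. They included Mgp, the matrix Gla protein of cartilage and vessels (17 and 12.6 RPKM in wild type, 99 and 102.3 RPKM in the ZnF1 mutant, 9.2 and 9.6 RPKM in the ZnF4 mutant). C5ar1, the complement C5a receptor of myeloid cells, had 9.1 and 7.4, 48.9 and 45.2, and 4.1 and 4.8 RPKM in the same order. Neurl3, Synpo, Pld3, Inhbb, Wwtr1, Mxra8 and Myof were also among them. Of all genes outside the set, 9.37% exceeded 0.95, so a likeness of that size is common over 6 libraries in 3 genotypes.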

How the data were processed

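The authors deposited 1 table of RPKM values, rounded to 1 decimal, for 26531 RefSeq transcripts in 6 poly(A) RNA libraries. TopHat and bedtools were used with build mm9, per the submitters' processing notes, and the annotation release, their versions and the read numbers are not given in the sources used here. Per the labels' protocols, no strand-marking step is named. A stray entry (1 row) without a gene was left out, and 3305 of 22098 symbols had several rows. Low values of rows shorter than 160 bases fell on single-read steps in 22.5% to 48.8% of cases per library (21.4% to 42.4% by chance), so the depth is unknown and no counting interval can be given.

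From these values log2(RPKM + 1) was computed for 11379 genes with at least 1 RPKM in at least 2 libraries, and limma 3.58.1 (R 4.3.3) fitted genotype and day to all 6 libraries, with Benjamini-Hochberg adjustment over all genes and a variance trend. A pseudocount of 1 understates the change of low genes. The replicate number is the labelled day, a time point shared by the genotypes, so day was kept as a block. Day changes correlated across genes between genotypes at 0.226 to 0.433. No 2 libraries were alike, with at most 5.61% of tested genes at the same value. The steps were tested on simulated data.

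The 41 genes and all lists were chosen with earlier results of these data known. Genes of the set were given with all values where they reached 5 RPKM or were called at 2-fold or more. From each other list up to 4 genes with the smallest p in the ZnF1 mutant were named, and the 10 closest profiles, of which 1 is not reported here. S100a4, Thy1, Pecam1, Egfl7, Alpl, the markers at or near 0, and the genes outside the filter were named after their values were seen. So were Igll1, Bst1, Lamb2, Agrn and Ltbp4. Alternatives were another pseudocount, filters, scalings, rows, no trend, no block and each library left out.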

Additional observations from a re-analysis of the deposited data

Results flagged for a closer look

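Gja1 changed in opposite directions between the days in wild type and in the ZnF1 mutant. Its level on the log2(RPKM + 1) scale changed by 0.90 from day 21 to day 28 in wild type and by -0.77 in the ZnF1 mutant. It was the 1 gene of the 29 tested with opposite changes of at least 0.5 in 2 genotypes. With 1 library per genotype and day this difference was not tested.

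Second transcript rows of Htra3 and Timp1, which the comparisons did not use, held signal above wild type in the ZnF1 mutant. The longer Htra3 transcript (2749 bases, against 2218 for the one used) had, in the order day 21 and day 28, 0.3 and 0.1 RPKM in wild type, 3.5 and 2.7 RPKM in the ZnF1 mutant, and 0.1 and 0.2 RPKM in the ZnF4 mutant. The second Timp1 transcript (893 bases, against 896) had 4 and 4.5 RPKM in wild type, 6.3 and 16.6 RPKM in the ZnF1 mutant, and 0.8 and 1.3 RPKM in the ZnF4 mutant. How reads of shared exons were divided between transcripts is not stated in the labels.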

How the results depend on the processing

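Of the calls of single genes, 21 of 28 in the ZnF1 mutant, 1 of 10 in the ZnF4 mutant and 22 of 27 between the mutants held under every alternative that tested the gene. No call changed direction. Ogn, Fbn1, Vcan, Wisp2, Htra1 and Htra3 dropped out of the test when either ZnF1 library was left out, so their calls were not checked there. The 28 genes higher in the ZnF1 mutant became 17 of 18 tested with a mean of at least 4 RPKM, and 17 to 28 with 1 library left out. The lowest was without the ZnF1 library of day 21, where 23 genes were tested. The 10 genes lower in the ZnF4 mutant became 3 without the filter, over 15231 genes in all, and 2 to 7 with 1 library left out. They were 2 on omitting wild type or ZnF4 day 21 and 3 on omitting ZnF4 day 28. A genotype left with 1 library is assumed to vary like the others. The 0 genes higher in the ZnF4 mutant became 1 (Thbs2) with a pseudocount of 0.1 or without the trend, and 0 to 1 (Lamb1) with 1 library left out. Between the mutants, 19 to 27 were lower with 1 library left out, and the calls lost were those of Dcn, Mmp13, Mmp14, Nid2 and Lamc1 (adjusted p up to 0.0519, 0.0574, 0.0786, 0.0501 and 0.179). Without the replicate block on day, 29 genes were higher in the ZnF1 mutant and 8 lower in the ZnF4 mutant, where Bgn and Tnc lost their calls and Gja1 gained one in the ZnF1 mutant. Quantile scaling turned the split over all genes in the ZnF1 mutant to 2047 higher and 2913 lower, from 2606 and 1730, with the median over all genes at -0.12 in place of -0.02, and left 28 of the 29 tested matrix genes higher and 0 lower. Between the mutants it gave 3431 higher and 2359 lower over all genes, from 2540 and 2637, and 27 of the 29 lower. With a pseudocount of 0.1 the median difference of the 29 genes was 2.26 in the ZnF1 mutant, in place of 1.75, with the largest moves in genes below 1 RPKM in wild type (Ogn 2.62, Vcan 2.05). Summed transcript rows, an alternative chosen after seeing the data, gave 28 higher in the ZnF1 mutant and 11 lower in the ZnF4 mutant. Values below about 0.1 RPKM cannot be resolved in the rounded table.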
